A study of Mus musculus with 6 samples.

Results

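A set of 10 ligand and receptor genes of fibroblast growth factor (FGF) signalling was followed in cells of the Isl1 lineage from mouse embryos. The members were every probe set whose annotation names only 1 of Fgf3, Fgf8, Fgf9, Fgf10, Fgf15, Fgf17, Fgf18, Fgfr1, Fgfr2 and Fgfr3. All 10 genes (7 ligands and 3 receptors) were found, with 19 probe sets among the 34945 that name a single gene, and 10 of 18193 genes in all. The mutant group (MUT, 3 arrays) held YFP+ cells sorted by flow cytometry from embryos carrying Isl1-cre, Rosa-YFP and Beta-catenin (loxP ex3), an allele from which Cre yields a stabilised β-catenin in Isl1-expressing cells and their descendants. The wild-type group (WT, 3 arrays) held YFP+ cells of the same domain without stabilised β-catenin, so a Cre-activated YFP reporter is common to both groups. Both were labelled as cardiac progenitors of embryonic day 9.0. Strain, sex and the number of embryos per sample are not stated in the labels, and p-values therefore measure the spread between these samples. Each array was hybridised with total RNA amplified from a small input, and values are log2 signals, 1 per probe set and array.

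FGFs are secreted proteins that bind receptor tyrosine kinases together with heparan sulfate, and the receptors signal through the adaptor FRS2 and the RAS, RAF and ERK cascade. Sprouty and Spred proteins and dual-specificity phosphatases, which the pathway itself induces, restrain it. In the pharyngeal region Fgf8 and Fgf10 are made by second heart field mesoderm, Fgf8, Fgf3 and Fgf15 also by pharyngeal endoderm or ectoderm, and FGF signalling there keeps cardiac progenitors proliferating and supports outflow tract growth.

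β-Catenin acts on genes through TCF/LEF factors, so the promoters of the members were searched for the TCF/LEF motif, spelled CTTTG followed by 2 letters that are each A or T, on both strands, in the 250 bases before the transcript start. RefSeq promoters (GRCm38.p6) were matched for 6 of the 10 genes, in 7 windows, as Fgfr3 had more than 1. No promoter was at hand for Fgf8, Fgf15, Fgf17 and Fgfr1, so these were not searched. A match was found in 1 of the 7 windows (14.3%), that of Fgf3, against 14.8% of 32851 windows of all genes. The Fgf3 window is shown for that match, in capitals 198 bases before the start, and the Fgf9 window because an Fgf9 probe set had the largest difference of the 19. The Fgf3 window lies at chr7:144838362-144838611 and the Fgf9 window at chr14:58072436-58072685, both on the + strand. No match in a window says only that these letters are not in it.
Fgf3: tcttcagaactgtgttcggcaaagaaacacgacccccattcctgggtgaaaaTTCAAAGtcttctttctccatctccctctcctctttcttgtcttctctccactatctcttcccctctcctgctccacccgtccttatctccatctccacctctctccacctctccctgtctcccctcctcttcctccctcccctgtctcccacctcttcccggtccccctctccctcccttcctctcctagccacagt
Fgf9: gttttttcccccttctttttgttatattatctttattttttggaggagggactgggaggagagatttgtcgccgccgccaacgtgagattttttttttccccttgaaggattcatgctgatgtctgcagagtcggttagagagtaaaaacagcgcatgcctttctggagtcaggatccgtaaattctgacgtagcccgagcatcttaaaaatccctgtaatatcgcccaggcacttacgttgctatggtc

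The libraries bear on all that follows. The first principal component (36.4% of the variance) placed the MUT arrays at 1.21, 33.0 and 29.4 and the WT arrays at −21.5, −20.5 and −21.6, so MUT replicate 1 lay between the groups. Y-linked genes were uneven: the mean of the 3 measured ran from 8.09 to 9.12 on the MUT arrays and from 3.33 to 9.08 on the WT arrays, with WT replicate 1 alone in its group at the high value. Xist read 12.13, 7.54 and 12.44 on MUT arrays 1, 2 and 3 and 5.46, 12.63 and 12.79 on the WT arrays. MUT replicates 1 and 3 were thus high for both Xist and the Y-linked genes, and no WT array was. Ctnnb1, the gene of β-catenin, read 12.97 ± 0.04 in MUT and 12.98 ± 0.03 in WT cells (mean ± SD, n = 3 each), and its probe set is not known here to cover exon 3, so it does not check the genotype. Isl1 read 8.27 ± 0.68 in MUT and 9.46 ± 0.28 in WT cells. Of 7 cardiac progenitor markers, only Nkx2-5 had a mean over the 6 arrays at or below 4.85, the 95th percentile of 27 bacterial control probe sets, which is called the background level here.

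No FGF member differed between the groups past the threshold. With limma over all 18193 genes and an adjusted p under 0.05, 0 of the 10 members were called in either direction. Over all genes 0.066% were called higher and 0% lower. Ligands and receptors had means that were higher in MUT cells for 8 of 10 members, against 44.7% of all genes, and the members' median difference was 0.14 on the log2 scale, against −0.03 for all genes. At an unadjusted p under 0.05, 2 of 10 members stood higher (6.76% of all genes) and 0 lower (4.84%). For 1 of 10 members all MUT arrays lay above all WT arrays (8.64% of all genes), and for 0 the reverse held (9.18%). In bulk samples, fewer cells of a type and less RNA per cell cannot be told apart.

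**Figure D1:**
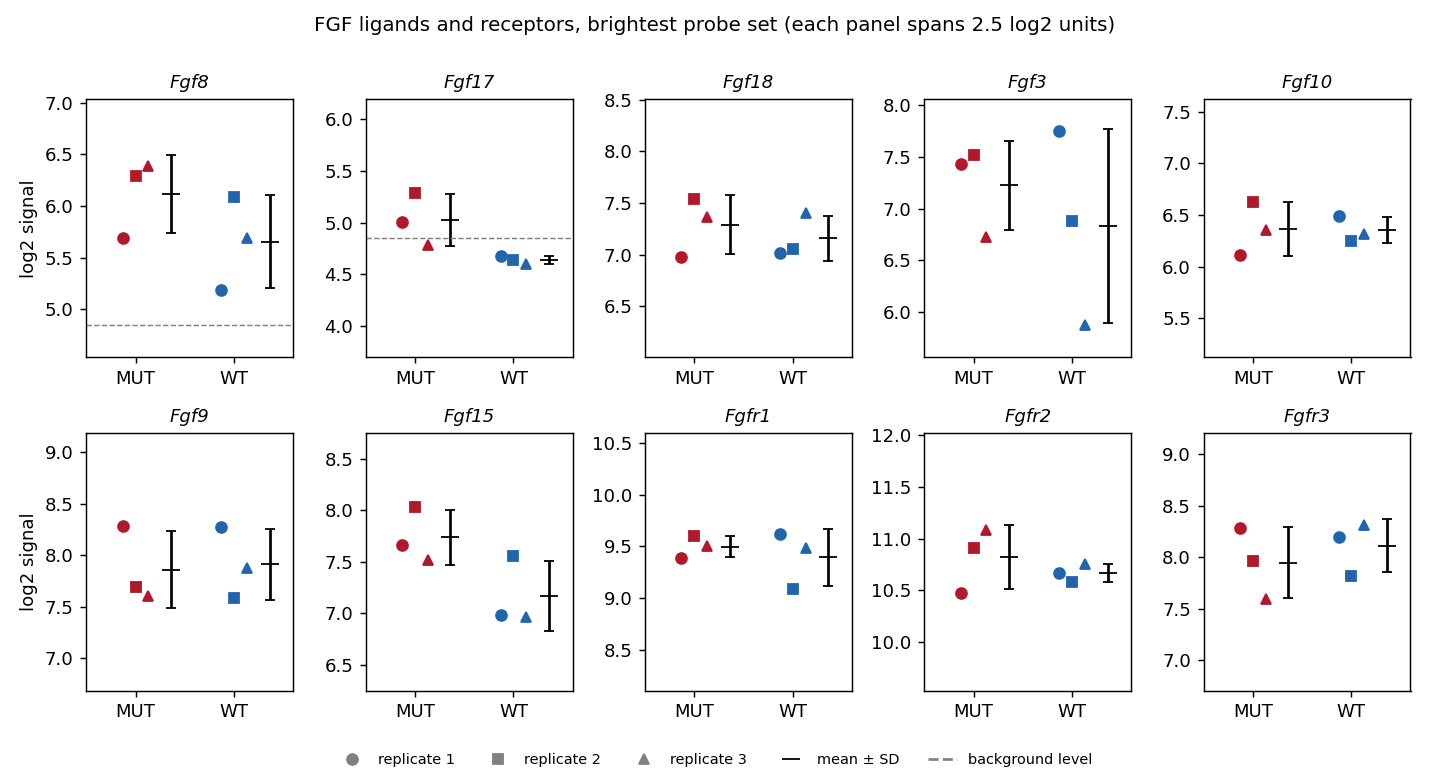
Log2 signal of the brightest probe set of each FGF member (y axis, each panel spanning the same number of log2 units) on the 3 MUT arrays in red and the 3 WT arrays in blue. Marker shapes give the replicate number and black bars the mean ± SD. The dashed line is the background level of 4.85, seen only in panels whose axis reaches it. The groups overlap in every panel but that of Fgf17.

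Fgf8, Fgf17 and Fgf18 form 1 subfamily of paracrine ligands that signal mainly through the mesenchymal c splice forms of the receptors. Fgf8, required for growth of the pharyngeal arches and the outflow tract, read 5.69, 6.29 and 6.38 on MUT arrays 1, 2 and 3, against 5.18, 6.08 and 5.69 on the WT arrays. MUT replicate 1 lay below WT replicates 2 and 3, so the groups overlapped. The difference was 0.47 (SE 0.27), with a 95% confidence interval from −0.17 to 1.10 (limma adjusted p = 0.540).

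Fgf17, a ligand known from the midbrain and hindbrain border, read 5.004, 5.29 and 4.78 on the MUT arrays and 4.67, 4.63 and 4.60 on the WT arrays. Every MUT value was above every WT value, but all 3 WT values and that of MUT replicate 3 were below the background level. The difference was 0.39 (95% interval 0.0296 to 0.75, limma adjusted p = 0.400). A dimmer Fgf17 probe set, 1421523_at, was below background on all 6 arrays and differed by 0.0138. Fgf18, a ligand of developing bone and lung, read 6.97, 7.54 and 7.36 in MUT and 7.01, 7.06 and 7.41 in WT cells. Its groups overlapped, and its interval ran from −0.31 to 0.57 around a difference of 0.13.

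Fgf3 and Fgf10 encode ligands that bind the epithelial b splice forms of the receptors. Fgf3 takes part in inner ear and pharyngeal development, and it read 7.43, 7.52 and 6.73 on the MUT arrays against 7.75, 6.88 and 5.87 on the WT arrays. Its values were spread more widely among the WT arrays than between the groups, from the high replicate 1 to the low replicate 3. The difference of 0.39 had an interval from −0.66 to 1.45. Without WT replicate 3 it was −0.09. The Fgf3 probe set 1441914_x_at, whose suffix marks probes that may also bind other transcripts, followed the same array order within each group, with values of 6.51, 6.84 and 5.90 in MUT and 6.99, 6.02 and 4.56 in WT cells. A further Fgf3 probe set, 1422923_at, was nearly flat at 6.36, 6.43 and 6.23 in MUT and 6.57, 6.52 and 6.44 in WT cells. There every MUT value was below every WT value, opposite to the other probe sets of the gene, with a difference of −0.17 (95% interval −0.47 to 0.12).

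Fgf10, a marker and mitogen of the second heart field, read 6.11, 6.63 and 6.35 in MUT cells against 6.49, 6.25 and 6.32 in WT cells. The groups overlapped, and the MUT values reached both higher and lower than the WT values. The interval of the difference, −0.37 to 0.39 around 0.0120, lies within 0.39 log2 units of 0.

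Fgf9, a ligand of epithelia and of the epicardium and endocardium that acts on neighbouring mesenchyme and myocardium, gave different readings by probe set. Its brighter probe set, 1420795_at, read 8.29, 7.69 and 7.60 on the MUT arrays and 8.27, 7.59 and 7.88 on the WT arrays. These groups overlapped (difference −0.05, interval −0.61 to 0.51). Probe set 1438718_at read 8.002, 7.68 and 7.07 on the MUT arrays and 6.81, 5.17 and 6.62 on the WT arrays. All 3 MUT values were higher than the WT values, and WT replicate 2 was the lowest. The difference, 1.38 (SE 0.44, 2.61-fold), had an interval from 0.36 to 2.41. Fitted over all 34945 probe sets, it did not pass (limma adjusted p = 0.338; unadjusted p = 0.0146). Among all probe sets 0.0229% were called higher and 0% lower. Without WT replicate 2 the difference was 0.87. Profiles of the 2 Fgf9 probe sets, each centred on its own mean, lay a root mean square distance of 0.82 log2 units apart over the 6 arrays. That was the largest distance among the 12 pairs of probe sets of 1 member gene, which otherwise ran from 0.14 to 0.79.

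Fgf15, the mouse counterpart of human FGF19, is a hormone of the gut in the adult and a locally acting ligand of the embryonic brain and pharynx. It read 7.66, 8.03 and 7.52 on the MUT arrays and 6.98, 7.56 and 6.97 on the WT arrays. Replicate 2 was the highest in both groups, and WT replicate 2 reached just above MUT replicate 3, so the groups overlapped by that array alone. The difference, 0.57 (SE 0.21, 1.48-fold), had an interval from 0.07 to 1.06 and the smallest adjusted p of the 10 members (limma adjusted p = 0.384; unadjusted p = 0.0294). It stayed above 0 with each array left out in turn, from 0.42 to 0.76.

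**Figure D2:**
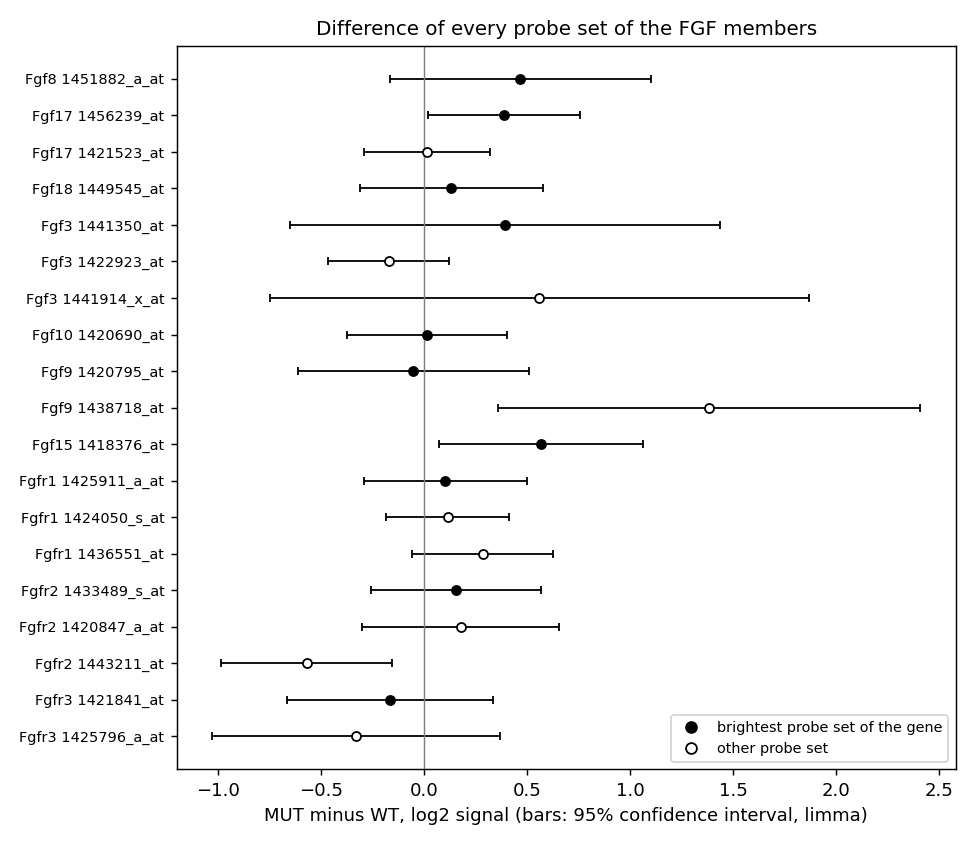
Difference of each of the 19 member probe sets, MUT minus WT in log2 units (x axis), with 95% confidence intervals from limma fitted over all probe sets. Filled points are the brightest probe set of a gene; the interval lies wholly above 0 for Fgf15, Fgf17 1456239_at and Fgf9 1438718_at and wholly below 0 for Fgfr2 1443211_at.

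The 3 receptors showed small differences on their brightest probe sets. Fgfr1, the main receptor of embryonic mesoderm, read 9.39, 9.60 and 9.50 in MUT and 9.62, 9.09 and 9.48 in WT cells. WT replicates 1 and 2 bracketed all MUT values, and the interval of the difference ran from −0.28 to 0.49 around 0.10. Probe sets 1424050_s_at and 1436551_at of Fgfr1 differed by 0.12 and 0.28. On 1436551_at the MUT arrays read 6.91, 7.18 and 7.01 and the WT arrays 6.57, 6.90 and 6.77, with every MUT value above every WT value by a narrow margin (95% interval −0.06 to 0.63).

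Fgfr2, whose b form is the receptor of Fgf10 in epithelia, read 10.47, 10.91 and 11.08 in MUT and 10.66, 10.58 and 10.75 in WT cells. MUT replicate 1 was the lowest of all 6 arrays and the other MUT arrays the highest (difference 0.15, interval −0.25 to 0.56). Probe set 1420847_a_at of Fgfr2 gave a similar 0.18. Probe set 1443211_at gave −0.57 (SE 0.18, interval −0.99 to −0.15), with 4.49, 4.45 and 4.97 in MUT and 5.38, 5.14 and 5.11 in WT cells. There all MUT values were below all WT values, but 2 of the 3 MUT values were below the background level, and the difference did not pass (limma adjusted p = 0.332).

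Fgfr3, a receptor best known for restraining growth of long bones, read 8.29, 7.96 and 7.60 in MUT and 8.20, 7.82 and 8.32 in WT cells. MUT replicate 3 was the lowest array, and the interval ran from −0.66 to 0.33 around −0.16. Probe set 1425796_a_at of Fgfr3 gave −0.33 and had the same lowest array, with 6.99, 6.43 and 5.90 in MUT and 6.81, 6.38 and 7.12 in WT cells. The array does not tell the b and c splice forms of the receptors apart by these annotations.

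**Figure D3:**
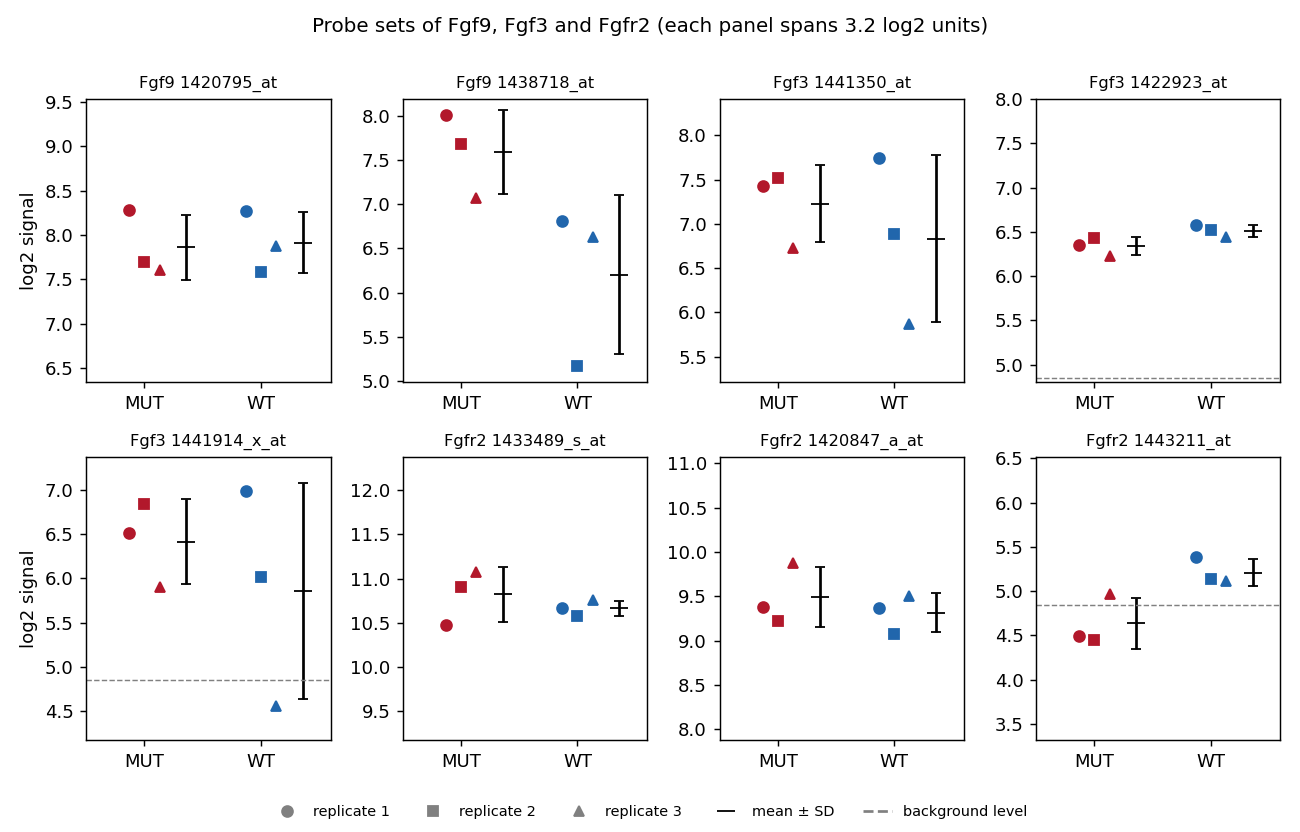
Log2 signal (y axis, each panel spanning the same number of log2 units) of all probe sets of Fgf9, Fgf3 and Fgfr2 on the 3 MUT arrays in red and the 3 WT arrays in blue, with mean ± SD in black. The background level is dashed in panels whose axis reaches it. The group means of Fgf9 1438718_at differ by 1.38 and those of Fgf9 1420795_at by −0.05, and Fgfr2 1443211_at lies close to background.

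Over all 19 member probe sets, 14 had a higher mean in MUT cells, against 45.2% of all single-gene probe sets. All MUT arrays lay above all WT arrays for 3 of 19 (8.45% of all) and below them for 2 of 19 (9.04%). An unadjusted p under 0.05 was found for 3 probe sets on the higher side (6.51% of all) and 1 on the lower side (4.91%), and 0 passed after adjustment. Probe sets of 1 gene share their transcripts and are not independent of each other.

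The members whose values spanned 1 log2 unit or more over the 6 arrays were Fgf3 (1.88), Fgf8 (1.20) and Fgf15 (1.07). Their profiles, centred on their own means, were compared with 87 other genes of the pathway lists by root mean square distance. Fgf3 was nearest to Fgf14 (0.25), Prdm1 (0.43) and Etv5 (0.48). Fgf8 was nearest to Flrt3 (0.15), which encodes a membrane protein that binds FGF receptors, then to the basement membrane proteoglycan gene Hspg2 (0.19) and to Gpc3 (0.25). Fgf15 was nearest to the adaptor gene Shc1 (0.19), Fgf1 (0.21) and Fgf17 (0.22). In WT cells Fgf1 and Fgf17 averaged 4.67 and 4.64, below the background level. Genes outside the lists were not compared, so these distances rank the listed genes only and do not show shared regulation.

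The rest of the FGF family was measured for 17 genes, of which 0 were called; 8 had higher and 9 lower means in MUT cells (median difference −0.02). At an unadjusted p under 0.05, 2 stood higher (6.76% of all genes) and 1 lower (4.84%). A higher mean in MUT cells was found for 44.7% of all genes. Fgf11, one of the FGF homologous factors that stay inside the cell and act on sodium channels rather than on receptors, read 6.45, 7.45 and 7.44 in MUT and 4.97, 3.84 and 5.38 in WT cells. All MUT values lay above the WT values by more than 1 log2 unit, a difference of 2.38 (SE 0.43) that did not pass (limma adjusted p = 0.140). Its WT mean of 4.73 was below the background level, as was WT replicate 2, and a dimmer Fgf11 probe set, 1421793_at, gave −0.09. Fgf1, a ligand of all the receptors, differed by 0.68 and Fgf23, a hormone of bone, by −0.41, but Fgf1 in WT cells and Fgf23 in both groups averaged below background, and other Fgf1 probe sets gave −0.16 and −0.20.

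Genes of co-receptors and FGF-binding proteins were measured for 7 genes and 0 were called, 0 also at an unadjusted p under 0.05. Flrt3 stood at 0.38, Fgfbp3, whose product releases FGFs from matrix, at −0.47 and the Klotho gene Kl at −0.14. Of 17 heparan sulfate genes 0 were called, and the 3 with an unadjusted p under 0.05 all stood higher (median difference 0.14). These were the membrane proteoglycan genes Sdc4 at 1.10 (SE 0.33) and Gpc4 at 0.61, and Hspg2 at 0.52. Over all genes 6.76% stood higher at that unadjusted p and 4.84% lower. Dimmer probe sets of Sdc4 (1448793_a_at) and Gpc4 (1436514_at) gave 0.65 and 0.55, each with overlapping groups. Of 14 transducers 0 were called (median difference −0.02). At an unadjusted p under 0.05, 3 transducers stood higher (6.76% of all genes) and 1 lower (4.84%). Among them the adaptor gene Shc1 stood at 0.53, the ERK kinase gene Map2k1 at 0.43 and the adaptor gene Crkl at −0.41. A dimmer Shc1 probe set, 1422853_at, gave 0.33 with overlapping groups.

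Feedback and target genes of the pathway had higher means in MUT cells, none of them past the threshold. All 11 measured had a higher mean in MUT cells (44.7% of all genes), 6 of the 11 had every MUT array above every WT array (8.64%), the same number had an unadjusted p under 0.05 in that direction (6.76%), and 0 were called by limma after adjustment. The list's median difference was 0.34, against −0.03 for all genes. The list was chosen with a higher level of FGF feedback genes in these arrays already known, so it is not independent evidence of its direction. Spry1, a Sprouty inhibitor of the pathway, read 7.12, 7.14 and 6.95 in MUT and 6.71, 6.48 and 6.54 in WT cells. Spry2, its close relative, read 9.66, 9.57 and 9.77 in MUT and 9.13, 9.31 and 9.13 in WT cells. In both genes the lowest MUT array was above the highest WT array, and the differences were 0.49 (SE 0.13) and 0.48 (SE 0.12), each with a limma adjusted p of 0.241. Spred3, a Sprouty-related inhibitor, stood at 0.78, with a WT mean of 4.31 below background. The phosphatase gene Dusp6, a direct readout of ERK activity, stood at 0.34 (limma adjusted p = 0.418), and the transcription factor genes Etv4 and Etv5 at 0.0119 and 0.20.

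**Figure D4:**
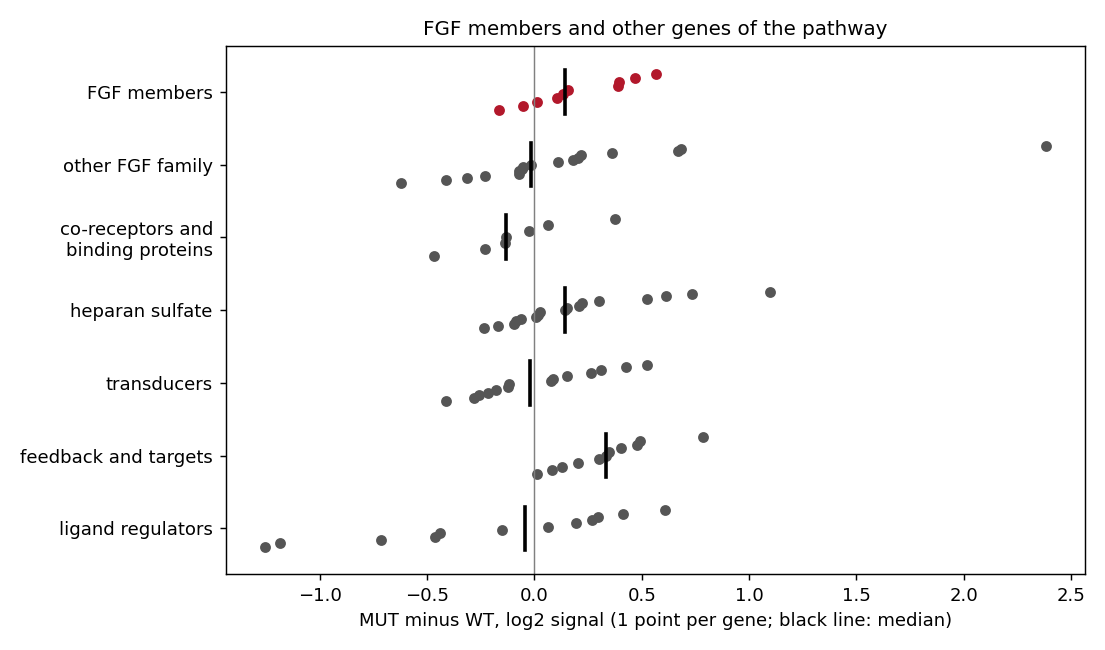
Difference of each gene, MUT minus WT in log2 units (x axis), for the FGF members in red and the other pathway lists in grey, with the median of each list as a black line. The feedback and target genes all lie above 0 (median 0.34), the members are spread from −0.16 to 0.57, and Fgf11 stands apart at 2.38.

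Genes that act upstream of FGF ligands in the pharynx went both ways. Of 12 measured, 0 were called, and 6 had higher (44.7% of all genes) and 6 lower means in MUT cells. At an unadjusted p under 0.05, 1 of the 12 stood higher (6.76% of all genes) and 3 lower (4.84%). Shh, a secreted signal of pharyngeal endoderm, stood at −1.26 (SE 0.20, limma adjusted p = 0.131), Isl1 at −1.18 and the forkhead factor gene Foxc2, which is active in pharyngeal mesenchyme, at 0.61. Tbx1, a T-box factor gene that acts upstream of Fgf8 and Fgf10 in the second heart field, stood at 0.41 with overlapping groups.

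Among markers of tissues that make FGF ligands, 0 were called by limma after adjustment in any list. Over all genes, 44.7% had a higher mean in MUT cells. At an unadjusted p under 0.05, 6.76% of all genes stood higher and 4.84% lower. Of 6 surface ectoderm markers all had higher means in MUT cells, 5 at an unadjusted p under 0.05, with a summed linear signal of 3258 to 4963 in MUT and 1550 to 2385 in WT cells; Krt19 stood at 1.89, Grhl3 at 1.08, against WT values that were all below background, and Tfap2a at 0.93. Of 8 pharyngeal endoderm markers 4 were higher and 4 lower, 2 of the lower at an unadjusted p under 0.05. The lower 4 were Shh, Foxa1 at −1.07, Nkx2-1 at −0.24 and Foxa2 at −0.15. Sums ran from 3571 to 5835 in MUT and from 3147 to 4155 in WT cells. The 2 brightest, Epcam (11.02 in MUT, 10.53 in WT cells) and Cldn6 (10.57 and 10.11), weigh most in these sums. Both were among the higher 4, Epcam at 0.48 and Cldn6 at 0.46, so the sums do not show the lower markers. The higher 4 also held Cdh1 at 0.46 and Pax9 at 0.09. Which tissue the signal of the higher 4 came from was not tested. Of 8 neural markers 7 were lower, 2 at an unadjusted p under 0.05, with sums of 1984 to 4374 in MUT and 3709 to 4476 in WT cells; Neurod4 stood at −1.74, Elavl3 at −1.37 and Sox2 at −0.52. En1 and En2, which mark the midbrain and hindbrain border where Fgf8, Fgf15 and Fgf17 are made, were below background. The part of these tissues in the FGF values was not tested.

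Among markers of other cell types and of the heart lineage, 0 were called by limma as well. Of 5 endothelial markers all were higher, 3 at an unadjusted p under 0.05, with sums of 2016 to 2706 in MUT and 1245 to 2263 in WT cells; Pecam1 stood at 1.14, Tie1 at 0.71 and Cdh5 at 0.60. Of 7 cardiac progenitor markers 5 were lower, 3 at an unadjusted p under 0.05, with sums of 1397 to 1899 in MUT and 2257 to 2576 in WT cells; besides Isl1, Tbx20 stood at −0.94 and Nkx2-5, whose mean was below background in both groups although WT replicates 1 and 2 read 4.89 and 4.95, at −0.46. Of 5 cardiomyocyte markers 4 were lower, 1 at an unadjusted p under 0.05, with Tnnt2 at −0.76, Myh6 at −0.67 and Actc1 at −0.29 and sums of 5400 to 6813 in MUT and 6658 to 9614 in WT cells. Of 5 erythroid markers all were lower with 0 at an unadjusted p under 0.05, Klf1 at −1.02, Hbb-bh1 at −0.21 and Hba-x at −0.16, and sums of 22250 to 35040 in MUT and 27520 to 31749 in WT cells. Their part in the FGF values was not tested either.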

How the data were processed

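Values were the log2 signals deposited by the authors for 45101 probe sets on each array; the log2 scale was read from the values (1.89 to 15.07, array medians 6.47 to 6.50). RNA was extracted with Trizol, amplified with WT-Ovation Pico and labelled with biotin, per the labels' protocols. The method of background correction, summarisation and normalization is not given in the sources used here, and the arrays were already aligned (largest SD at a rank 0.07) and were used unscaled, with no pseudocount. The number of arrays limits the precision.

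Names of probe sets came from GEO's platform annotation and were updated from a RefSeq gene table (34741 of 34945 single-gene probe sets matched); 932 naming several genes, 9160 unnamed here and 64 controls were left out. The probe set with the highest mean stood for each gene, and no dim gene was removed. MUT and WT arrays were compared with limma 3.58.1 in R 4.3.3 (lmFit, eBayes, group only, two-sided, 4 residual and 3.45 prior degrees of freedom), over 18193 genes and, for the dimmer probe sets of a gene, over 34945 probe sets, with Benjamini-Hochberg adjustment and a call at an adjusted p under 0.05. Every adjusted p printed is from one of these fits. The smallest p of an exact permutation test with 3 arrays a group is 0.1. The fit was tested on simulated data (20 data sets of 18193 genes, 200 of them changed). It found 78.5% of log2 changes of size 1 and 98.5% of those of size 2, and made 10.3 false calls per data set. The simulated noise was normal, with the fitted variances, and independent between arrays and genes. It held no odd array and no uneven sex, so these shares are not the power of the real comparison.

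The members, lists and alternatives were chosen with earlier results of these data known. Genes named are the members, Ctnnb1, Isl1 and the 3 genes of each list with the smallest p. Named as well are the 3 nearest in profile to a member spanning 1 log2 unit or more. Spry4, Il17rd, Tbx1, Dusp6, Etv4, Etv5, En1, En2, Foxa2, Nkx2-1, Cldn6, Cdh1, Pax9 and Xist were added after their values were seen. Genes of the lists that lack such a probe set were not analysed here. The fit over genes was repeated with quantile normalization, with centring each array, with replicate number as a block and leaving out the dimmest 40% of genes. It was also repeated with other choices of probe set, a trended robust prior, array weights or a Y-linked covariate, and without each array. The fit over probe sets was repeated only with the block and without each array.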

Additional observations from a re-analysis of the deposited data

How the results depend on the processing

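None of the 10 FGF members was called by limma under any of the alternatives run (8 members were tested without the dimmest 40% of genes). Of the 148 recomputed member differences 130 kept their sign, but many of these could not change. The replicate block, the trended robust prior and leaving out dim genes return the same difference by construction. For Fgf8, Fgf10, Fgf15 and Fgf18, with 1 probe set each, the other choices of probe set do so too. Fgf8, Fgf15, Fgf17 and Fgf18 stood higher in MUT cells under every alternative in which they were tested. However, Fgf8 was 0.23 without WT replicate 1, and without MUT replicate 2 Fgf17 was 0.26 and Fgf18 0.0086. Fgf17 was lowest, at 0.20, with the mean of probe sets. With single arrays left out the highest values of Fgf8, Fgf17 and Fgf18 were 0.68, 0.51 and 0.29. Fgf9 turned to 1.38 with the most variable probe set and 0.67 with the mean of probe sets, and Fgfr2 to −0.57 and −0.0795 under the same choices. With the Y-linked covariate Fgf3 was −0.38, Fgf10 −0.14, Fgfr1 −0.10 and Etv5 −0.11, and 5 members rather than 8 stood higher. Fgf10 was −0.0023 with quantile normalization and −0.0082 with centring, where Etv4 was −0.0200 and −0.0084; Etv4 was −0.0312 with array weights. With single arrays left out, differences ran from −0.0888 to 0.85 for Fgf3, from −0.26 to 0.13 for Fgf9, from −0.12 to 0.14 for Fgf10, from −0.0516 to 0.22 for Fgfr1, from −0.33 to 0.0122 for Fgfr3, from −0.20 to 0.27 for Spry4, from −0.22 to 0.15 for Etv4 and from −0.11 to 0.34 for Il17rd. For dimmer probe sets they ran from −0.0144 to 0.31 for Fgfr2 1420847_a_at, from −0.0491 to 0.0826 for Fgf17 1421523_at and from −0.0879 to 1.13 for Fgf3 1441914_x_at. Counts chosen after seeing the data also moved: members with an unadjusted p under 0.05 numbered 1 without the dimmest 40% of genes, 1 with the mean of probe sets, 1 with the Y-linked covariate and 0 to 2 with single arrays left out (0 without MUT replicate 2, WT replicate 1 or WT replicate 3); members with a higher mean numbered 6 to 10 with single arrays left out, and feedback genes 9 to 11. Over all genes the 12 calls became 6 with centring, 1 with the most variable probe set, 1 with the mean of probe sets, 1 with the Y-linked covariate and 0 to 92 with single arrays left out (92 without MUT replicate 1). The 8 called probe sets became 0 to 100. The cause was not tested.

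With the replicate number as a block, 0 genes and 1 probe set were called and no FGF member was. Deviations of same-numbered arrays from their group means correlated across genes at 0.11, −0.08 and −0.02 for numbers 1, 2 and 3. MUT replicate 1 correlated best with its own number, MUT replicate 2 with WT replicate 3 (0.07) and MUT replicate 3 with WT replicate 2 (0.15). With so few arrays these correlations cannot decide whether same-numbered arrays were handled together, and the labels do not say. With the block the SE fell from 0.21 to 0.14 for Fgf15 and from 0.27 to 0.16 for Fgf8. It rose from 0.16 to 0.19 for Fgf10 and from 0.17 to 0.19 for Fgfr1. The part of amplification from small inputs in the spread between arrays was not tested. Differences of genes near the background level cannot be read as exact sizes.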
